A study of Rattus norvegicus with 2 samples.

Results

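The genes examined here encode the metalloproteases of the MMP, ADAM and ADAMTS families, the ADAMTS-like proteins and the tissue inhibitors of metalloproteases (TIMPs). They were found by their gene symbols, and 68 of the 18166 genes named on the arrays were members: 20 MMPs, 25 ADAMs, 14 ADAMTSs, 5 ADAMTS-like genes and 4 TIMPs. Each member had 1 probe set with a single annotated symbol. Of 82 protein-coding rat genes in RefSeq whose symbols fit, 14 were not analysed here, among them Adam10, Adam33 and Mmp24.

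The series holds 2 Affymetrix rat arrays of the whole-transcript kind, 1 for each condition. The first held SMiNs, small molecule-induced neurons, which are C6 glioma cells kept for 35 days with 20 μM CHIR99021, an inhibitor of GSK3, and 100 μM forskolin, an activator of adenylyl cyclase. The second held undifferentiated C6 glioma, an established rat glial tumor line from which the SMiNs were made. The sample labels give the drug treatment and a serum medium for both samples, whereas the study's methods give untreated C6 glioma in serum and SMiNs in a serum-free induction medium with BDNF and GDNF on Matrigel. The methods were followed, so that drugs, medium, coating and time in culture differed together and their shares cannot be told apart. With 1 array per condition there is no spread between replicates, no SD and no p-value, and each fold describes this pair of arrays.

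Values are log2 signals per probe set as deposited by the authors, compared between the arrays for 1 probe set at a time and never between genes. The 1 exception is a sum over fibroblast markers. A floor, taken as the signal of genes not expressed in these cells, was drawn from 1360 probe sets of olfactory and vomeronasal receptors, at their 95th percentile. It was 4.89 on the SMiN array and 4.79 on the C6 glioma array. If only 1 of a gene's values was under its floor, that value was replaced by the floor, which makes the fold a lower bound, written as "at least". In cultures measured in bulk, fewer cells of a type and less RNA per cell cannot be told apart.

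Metalloproteases cut proteins with a zinc ion held in the active site. MMPs cleave matrix proteins and are made as inactive precursors, some secreted and some anchored in the membrane. ADAMs are membrane proteins that release the outer parts of growth factors, receptors and adhesion molecules, whereas ADAMTSs are secreted and cleave proteoglycans and procollagens. TIMPs block these enzymes. In glioma the families are known for their part in invasion through brain matrix, and in neurons for the shedding of adhesion molecules and the remodeling of the perineuronal matrix.

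The labelled cells were set against their markers first. Past 2-fold in SMiNs, 5 of 6 genes that mark oligodendrocyte precursors and glioma were lower than in C6 glioma, as were all 3 that mark dividing cells, and 1 of 6 neuronal genes, Tubb3, was higher. Of the neuronal markers, Syt1 and Nefl lay below the floor on both arrays. Cells that express metalloproteases in tissue were looked for as well. Of 10 microglia and macrophage markers, 1 reached the floor on the SMiN array and 2 on the C6 glioma array, and none differed by 2-fold. Of 4 neutrophil markers none reached it on either array, and of 4 measured endothelial markers none reached it on the SMiN array and 1 on the C6 glioma array. Of 6 fibroblast markers, 3 (Postn, Pdgfrb and Col1a1) fell past 2-fold in SMiNs, while Lum and Dcn lay below the floor on both arrays. The remaining one, Col1a2, had 5.54 in SMiNs and 5.05 in C6 glioma, 1.40-fold higher. The linear signal summed over the 6 fibroblast markers, Lum and Dcn included, was 194 in SMiNs and 1130 in C6 glioma. Such a sum does not count cells of a type. The part of the difference between the sums in the results below was not tested.

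In SMiNs, 9 of the 68 members had a signal lower by 2-fold or more, and 1 had a signal higher by as much. That is 13.2% of the members lower, against 8.12% of all named genes, and 1.47% higher, against 4.27% of all named genes. At a 4-fold difference, 5 members were lower (7.35%, against 1.35% of all named genes) and 0 were higher (against 0.633%). The median difference, SMiN minus C6 glioma, was 0 both for the members and for all named genes, and the mean was -0.17 for the members and -0.06 for all named genes. Most members thus differed by less than 2-fold. After quantile normalization of the arrays, 6 members were lower (8.82%, against 6.58% of all named genes) and 2 were higher (2.94%, against 5.0%). At 1.5-fold, 12 members were lower (17.6%, against 16.7%) and 8 were higher (11.8%, against 11.3%), both near the shares of all named genes.

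**Figure D1:**
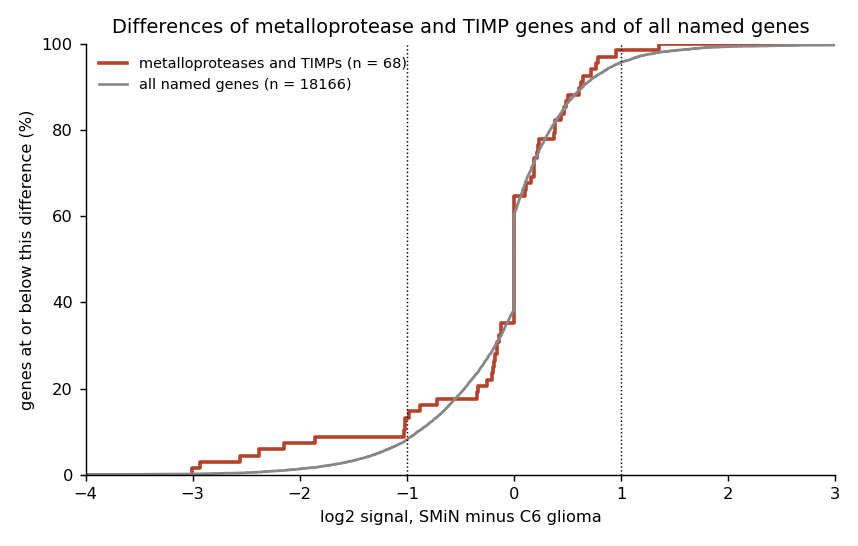
Cumulative share of genes (y axis, %) against the difference in log2 signal, SMiN minus C6 glioma (x axis, differences past either end drawn at the end), for the 68 members and for all 18166 named genes; dotted lines mark 2-fold. The lines run close together except at the left, where 5 members were at least 4-fold lower.

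In all, 34 members reached the floor on at least 1 array, 31 of them on the SMiN array and 30 on the C6 glioma array. The other 34 (50% of the members) lay below the floor on both arrays, against 37.8% of all named genes. An identical value on both arrays was found for 19 members (27.9%, against 22.7% of all named genes), and 16 of these lay below the floor. An equal value is not read here as an unchanged transcript.

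**Figure D2:**
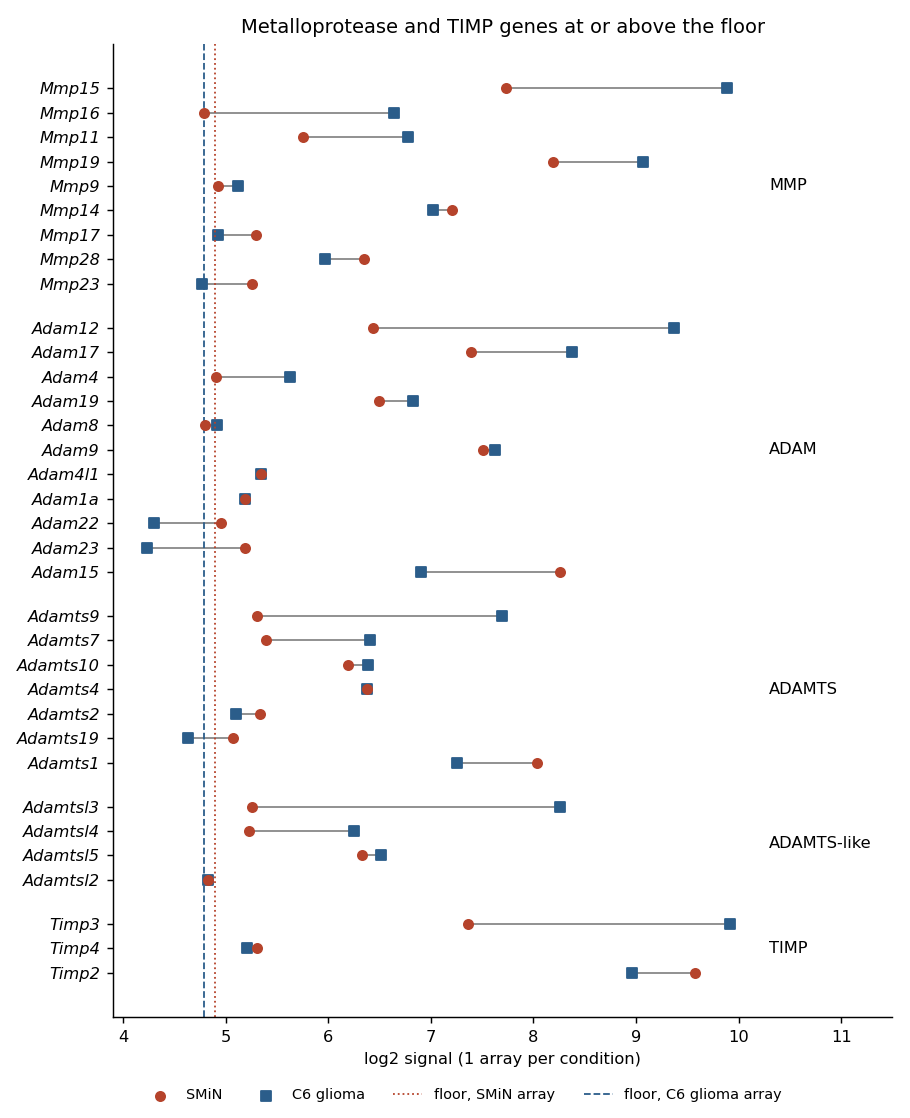
Log2 signal (x axis) of the 34 members that reached the floor on either array, 1 row per gene, grouped by family and ordered by difference; circles are the SMiN array, squares the C6 glioma array, and vertical lines the floors. The longest lines belong to Adamtsl3, Adam12, Timp3, Adamts9 and Mmp15, all lower in SMiNs.

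The TIMPs differed among themselves. Timp3, which binds to the matrix and inhibits ADAM17 and ADAMTS enzymes besides MMPs, had a log2 signal of 7.36 in SMiNs and 9.92 in C6 glioma, 5.87-fold lower in SMiNs. Of all named genes, 78 had a difference as low, Timp3 included. Timp2, which helps MT1-MMP to activate pro-MMP2, had a signal of 9.57 in SMiNs and 8.96 in C6 glioma, 1.53-fold higher. Timp3 and Timp2 thus lay on opposite sides of 0. Timp4 had a signal of 5.31 in SMiNs and 5.21 in C6 glioma. Timp1, the secreted inhibitor that many cells make on injury, was below the floor on both arrays, at 3.78 in SMiNs and 4.03 in C6 glioma.

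The promoter of Timp3 is shown because this gene had the lowest difference among the inhibitors. It comes from RefSeq (GRCr8, chr7:19459509-19459808, minus strand) and runs from 250 bases before the start site to 50 after it, with CG dinucleotides in capitals, of which there are 26.
Timp3: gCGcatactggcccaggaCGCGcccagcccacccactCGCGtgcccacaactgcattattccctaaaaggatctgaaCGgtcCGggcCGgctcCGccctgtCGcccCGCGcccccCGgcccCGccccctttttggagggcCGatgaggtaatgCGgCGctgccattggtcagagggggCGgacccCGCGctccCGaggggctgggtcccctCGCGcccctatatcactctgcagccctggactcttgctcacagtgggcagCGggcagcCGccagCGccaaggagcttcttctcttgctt

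The 4 membrane-type MMPs measured also split. Mmp15, which encodes MT2-MMP, had a log2 signal of 7.73 in SMiNs and 9.88 in C6 glioma, 4.44-fold lower in SMiNs. Mmp16, which encodes MT3-MMP, had a signal of 4.78 in SMiNs, below the floor, and 6.65 in C6 glioma, at least 3.37-fold lower. Mmp14, which encodes MT1-MMP, the activator of pro-MMP2, had 7.20 in SMiNs and 7.02 in C6 glioma, 1.14-fold higher. Mmp17, which encodes a membrane-type MMP held by a lipid anchor, had 5.29 in SMiNs and 4.92 in C6 glioma. Thus 2 of the 4 were lower by at least 2-fold and the other 2 differed by less than 2-fold. With the floor drawn at the 99th percentile of the receptor probe sets instead, 6.05 on the SMiN array, Mmp16 no longer passed 2-fold.

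Among secreted MMPs, only Mmp11 passed 2-fold. Mmp11, stromelysin-3, had a log2 signal of 5.76 in SMiNs and 6.78 in C6 glioma, 2.03-fold lower, with a log2 difference of -0.89 after quantile normalization. Mmp19 had 8.19 in SMiNs and 9.07 in C6 glioma, 1.84-fold lower, and Mmp28, epilysin, had 6.35 in SMiNs and 5.97 in C6 glioma, 1.31-fold higher. The gelatinases, which degrade denatured collagen and basement membrane collagen, were at or near the floor. Mmp9 had 4.92 in SMiNs and 5.13 in C6 glioma, and Mmp2 was below the floor on both arrays, with 4.42 in SMiNs and 4.56 in C6 glioma. Mmp23 had 5.26 in SMiNs, above the floor, and 4.77 in C6 glioma, below it, at least 1.38-fold higher.

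Of the 10 MMP genes not yet named, all except Mmp21 lay in a row on chromosome 8. By the gene order of the RefSeq rat annotation (GRCr8), 9 members are neighbors there, interrupted only by Mmp1b, which was not analysed here: Mmp13, Mmp12, Mmp3, Mmp1, Mmp10, Mmp8, Mmp27, Mmp20 and Mmp7. The row holds the collagenases, 2 stromelysins, matrilysin and macrophage elastase. All 9 lay below the floor on both arrays, with log2 signals of 2.64 to 4.72 in SMiNs and 2.57 to 4.10 in C6 glioma, and 4 of them had equal values on both. Mmp3, stromelysin-1, had 4.10 on each array. Mmp7, matrilysin, had 4.12 in SMiNs and 3.35 in C6 glioma, and no fold is given because both values are under the floor. Expression of this row was thus not detectable above the floor in either condition.

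**Figure D3:**
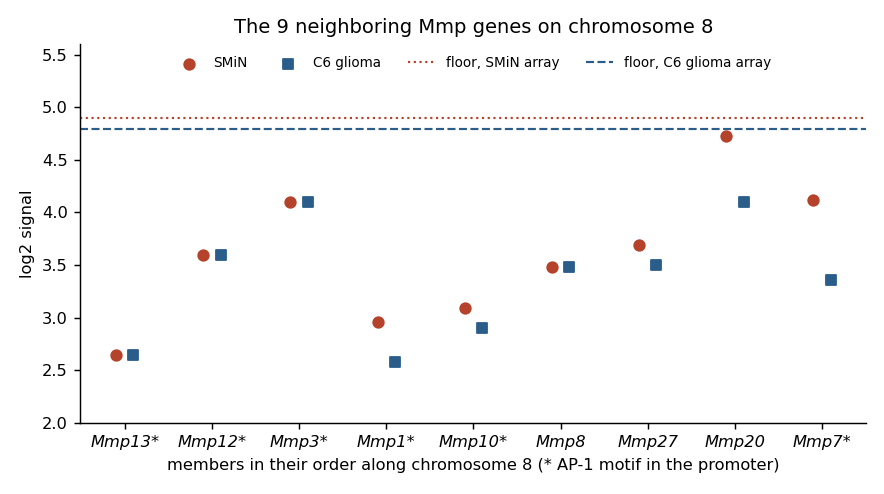
Log2 signal (y axis) of the 9 neighboring Mmp genes in their order along chromosome 8 (x axis), circles for the SMiN array and squares for the C6 glioma array; lines are the floors and an asterisk marks a promoter with the AP-1 motif. All 18 values lie under their floors.

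The promoters of this row share a feature that the choice of members did not use. The motif of the transcription factor AP-1, TGAGTCA on either strand, was found in the window from 250 bases before to 50 after the start site of 6 of the 9 genes. In these 6 its first base lay between positions -87 and -61 from the start. Among all 47 members with a promoter in the table, 8 held it (17.0%), against 5.04% of 27457 genes with a promoter. Of these 8, 6 were the neighbors in this row and the other 2 were Adam19 and Adam24. The share thus describes the row rather than the members as a whole. The 60 bases around the motif, all on the plus strand of chromosome 8 (GRCr8, from RefSeq), are shown with the motif in capitals. The windows are chr8:12782737-12782796 for Mmp13, chr8:12866539-12866598 for Mmp12, chr8:12925184-12925243 for Mmp3, chr8:12943343-12943402 for Mmp1, chr8:12974620-12974679 for Mmp10 and chr8:13132937-13132996 for Mmp7.
Mmp13: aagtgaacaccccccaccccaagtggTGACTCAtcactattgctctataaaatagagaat
Mmp12: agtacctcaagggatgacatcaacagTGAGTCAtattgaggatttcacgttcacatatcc
Mmp3: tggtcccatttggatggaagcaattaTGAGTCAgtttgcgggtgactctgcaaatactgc
Mmp1: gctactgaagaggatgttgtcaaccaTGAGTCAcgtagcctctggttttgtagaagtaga
Mmp10: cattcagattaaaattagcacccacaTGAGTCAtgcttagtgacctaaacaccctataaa
Mmp7: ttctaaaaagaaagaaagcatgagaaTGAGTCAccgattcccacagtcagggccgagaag

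Mmp13 carries the motif as read on the opposite strand, and the other 5 carry it in the orientation given above. A motif match is a description of these letters and does not show that the factor binds. Since the genes were below the floor on both arrays, the arrays give no expression change to set beside it.

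Among the proteinase ADAMs of somatic cells, Adam12 and Adam15 lay at opposite ends. Adam12, meltrin alpha, which can release HB-EGF, had a log2 signal of 6.44 in SMiNs and 9.37 in C6 glioma, 7.62-fold lower in SMiNs. Of all named genes, 42 had a difference as low. Adam15, metargidin, had 8.26 in SMiNs and 6.90 in C6 glioma, 2.55-fold higher, and was the 1 member past 2-fold in that direction. Of all named genes, 350 had a difference as high.

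The other proteinase ADAMs above the floor were lower by less than 2-fold. Adam17, the TNF-releasing enzyme TACE, had a log2 signal of 7.40 in SMiNs and 8.38 in C6 glioma, 1.97-fold lower, and passed 2-fold (a difference of -1.04) once each array's median was subtracted. Adam19, meltrin beta, a neuregulin sheddase, had 6.49 in SMiNs and 6.83 in C6 glioma. Adam9, meltrin gamma, had 7.51 in SMiNs and 7.63 in C6 glioma. Both other meltrins thus differed by less than 2-fold. Adam8 had 4.80 in SMiNs, below the floor, and 4.92 in C6 glioma, and Adam28 lay below the floor on both arrays.

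The promoter of Adam15 is shown as that of the 1 member at least 2-fold higher (RefSeq, GRCr8, chr2:177062800-177063099, minus strand). Its 28 CG dinucleotides are in capitals.
Adam15: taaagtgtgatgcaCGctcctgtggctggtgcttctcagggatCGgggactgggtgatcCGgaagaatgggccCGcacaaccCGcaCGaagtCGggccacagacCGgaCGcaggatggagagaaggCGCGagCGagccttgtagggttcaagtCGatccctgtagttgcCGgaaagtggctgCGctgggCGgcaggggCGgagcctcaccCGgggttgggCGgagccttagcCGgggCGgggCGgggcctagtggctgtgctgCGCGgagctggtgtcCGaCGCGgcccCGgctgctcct

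The ADAMs of brain that have lost proteinase activity and act as receptors for LGI proteins at synapses and in myelin were low on both arrays. Adam23 had a log2 signal of 5.19 in SMiNs, above the floor, and 4.23 in C6 glioma, below it, at least 1.32-fold higher. Adam22 had 4.95 in SMiNs and 4.31 in C6 glioma, at least 1.12-fold higher. Adam11 was below the floor on both arrays, with 4.43 in SMiNs and 4.59 in C6 glioma. The SMiN values of Adam22 and Adam23 lay within 0.3 of the SMiN floor, whose 99th percentile counterpart, 6.05, was above both. Of 1360 receptor probe sets that set the floor, 59 had a signal in SMiNs higher by 2-fold or more and 5 a signal lower by as much, so that low signals rose on the SMiN array more often than they fell.

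The remaining 15 ADAMs, several of them known from testis and sperm, included 12 below the floor on both arrays, and 8 had equal values. The 3 above the floor were Adam1a, with 5.19 on each array, Adam4 and Adam4l1. Adam4 had 4.91 in SMiNs and 5.62 in C6 glioma, and Adam4l1 had 5.35 on each array. In the gene order, Adam9 stood next to Adam32, Adam5, Adam3a and Adam18 on chromosome 16, and of these 5 neighbors only Adam9 reached the floor.

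The ADAMTS proteoglycanases cleave versican, aggrecan and related proteoglycans. Adamts9 had a log2 signal of 5.31 in SMiNs and 7.69 in C6 glioma, 5.22-fold lower in SMiNs, and 111 named genes had a difference as low. The SMiN value of Adamts9 also lay under the 99th percentile floor of 6.05. Adamts1 had 8.04 in SMiNs and 7.25 in C6 glioma, 1.73-fold higher, and passed 2-fold only after quantile normalization (a difference of 1.01). Adamts4, aggrecanase-1, had 6.38 on both arrays. Adamts5, aggrecanase-2 and the neighbor of Adamts1 on chromosome 11, was below the floor on both arrays, with 3.98 in SMiNs and 4.15 in C6 glioma. Members of this group were therefore lower, higher, level and not detectable.

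Of the other ADAMTS genes, only Adamts7 passed 2-fold. Adamts7, which cleaves the cartilage protein COMP, had 5.39 in SMiNs and 6.41 in C6 glioma, 2.02-fold lower, and a difference of -0.93 after quantile normalization. Adamts10 had 6.19 in SMiNs and 6.39 in C6 glioma. Of the procollagen N-propeptidases, which trim fibrillar collagens, Adamts2 had 5.33 in SMiNs and 5.10 in C6 glioma, while Adamts3 and Adamts14 were below the floor on both arrays.

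The ADAMTS-like proteins resemble ADAMTSs but have no proteinase domain, and they bind to matrix such as fibrillin microfibrils. Adamtsl3, also called punctin-2, had a log2 signal of 5.25 in SMiNs and 8.26 in C6 glioma, 8.05-fold lower in SMiNs. This was the lowest difference of the 68 members, and 34 named genes had a difference as low. Its SMiN value lay above the floor used here but under the 99th percentile floor of 6.05, where the fold would be a lower bound. Adamtsl4, a fibrillin-binding protein, had 5.23 in SMiNs and 6.26 in C6 glioma, 2.03-fold lower, with a difference of -0.97 after quantile normalization. Adamtsl5 had 6.33 in SMiNs and 6.52 in C6 glioma. Of the 5 genes, 3 were lower by any amount, 2 had equal values and 0 were higher. Over all 18166 named genes, 6908 were lower by any amount, 4121 had equal values and 7137 were higher. With the 5 ADAMTS-like genes left out, a choice made after the data were examined, 7 of the other members were at least 2-fold lower. With them it was 9 of 68 members (13.2%, against 8.12% of all named genes). No percentage was taken for the count of 7.

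The promoters of the members that differed were compared with the rest. Motifs searched on both strands besides AP-1 were the cAMP response element CRE, TGACGTCA, its core TGACG, which every CRE holds, and the TCF motif CTTTGATC. CRE was found in 1 of 47 members (2.13%, against 2.0% of all genes with a promoter), Adam26a. The core was found in 9 (19.1%, against 23.0%), among them Adamts1 and Timp2, and the TCF motif in 0 (against 0.841%). Of the 10 members at least 2-fold higher or lower, 9 had a promoter in the table, all except Mmp16. None of the 9 held any of the motifs in this window. Any of them was found in 7273 of 27457 genes, read from 1 promoter each, so most genes held none either.

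Base composition also differed between the members. The median count of CG dinucleotides was 23.5 in the promoters of 26 members that reached the floor on either array, 4 in the 9 promoters of the chromosome 8 row and 12 in 12 other members below the floor. Over all 27457 genes with a promoter it was 8. That background takes in genes whatever their signal. No median was taken over other genes that reached the floor, so a high count cannot be called particular to these members. The 9 promoters of members past 2-fold had a median of 27, with 50 in Adamtsl3 and 0 in Adamts7. These counts are a description of the promoters that were in the table and were not tested.

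**Figure D4:**
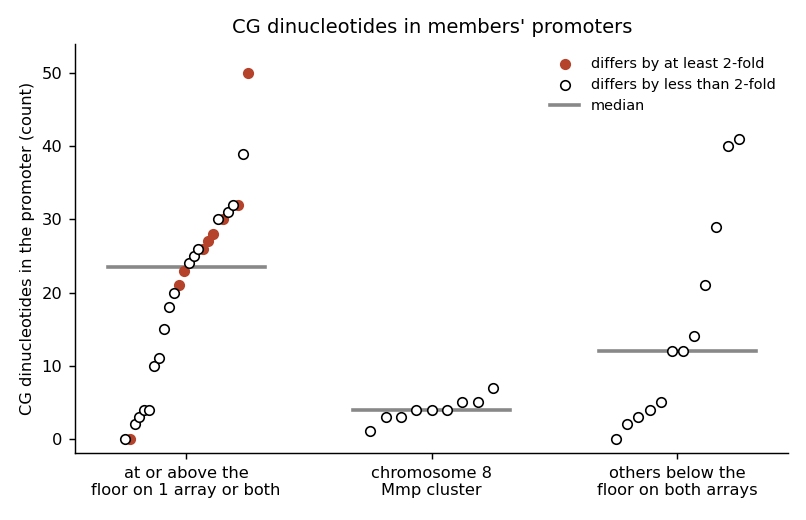
Count of CG dinucleotides in the 300-base promoter (y axis) of 47 members, 1 point each, grouped by signal (x axis); filled points differ by at least 2-fold between SMiN and C6 glioma, and gray bars are medians. The chromosome 8 row lies between 1 and 7, and filled points are found only in the group at or above the floor.

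Genes that activate, bind or restrain metalloproteases, relatives of theirs and their substrates were described from 5 lists made beside the members. With values under the floor replaced by it, 7.63% of all named genes were lower by 2-fold or more in SMiNs and 3.09% were higher, and the counts below are taken in the same way. Among 20 measured activators and inhibitors, 2 (10.0%) were lower and 1 (5.0%) was higher. Pcsk6, a proprotein convertase, had a log2 signal of 5.99 in SMiNs and 7.74 in C6 glioma, 3.37-fold lower. Serpine2, an inhibitor of thrombin and plasminogen activators, had 10.29 in SMiNs and 11.44 in C6 glioma, 2.22-fold lower. Plat, the tissue plasminogen activator, had 9.21 in SMiNs and 8.13 in C6 glioma, 2.12-fold higher. A2m, a broad proteinase inhibitor, had 5.65 in SMiNs and 4.55 in C6 glioma, below the floor, and was thus higher by at least 1.82-fold, which does not reach 2-fold.

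The best known of the regulators differed by less than 2-fold. Furin, which activates membrane-type MMPs and ADAMs, had 8.0 in SMiNs and 7.26 in C6 glioma, 1.67-fold higher. Reck, a membrane-anchored inhibitor of MMPs, had 7.76 in SMiNs and 8.43 in C6 glioma, 1.59-fold lower. Bsg, which encodes the MMP inducer EMMPRIN, had 9.42 in SMiNs and 8.99 in C6 glioma. Plau, urokinase, had 4.47 on each array, below both floors.

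Among 10 measured partners of ADAMs, 2 (20.0%) were at least 2-fold lower and 1 (10.0%) was higher. Lgi4, a secreted ligand of ADAM22 known from Schwann cell myelination, had 6.40 in SMiNs and 7.94 in C6 glioma, 2.90-fold lower. Rhbdf1, which encodes iRhom1, a factor for the maturation of ADAM17, had 6.17 in SMiNs and 7.63 in C6 glioma, 2.75-fold lower, and Rhbdf2, its paralog, was below the floor on both arrays. Tspan5, a tetraspanin partner of ADAM10, had 9.07 in SMiNs and 8.01 in C6 glioma, 2.08-fold higher. Adam17 itself was 1.97-fold lower in SMiNs, short of 2-fold, and a link between it and Rhbdf1 was not tested. Of 5 measured astacin relatives, a further family of zinc proteinases, none differed by 2-fold, and only Bmp1, the procollagen C-proteinase, reached the floor, with 6.05 in SMiNs and 6.41 in C6 glioma.

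Of 32 membrane substrates of ADAMs and membrane-type MMPs, 3 were at least 2-fold lower and 3 were at least 2-fold higher (9.38% each). The lower genes were the proteoglycan Cspg4, with 4.89 in SMiNs, just below the floor, and 7.99 in C6 glioma (at least 8.59-fold), the receptor phosphatase Ptprz1, with 7.81 in SMiNs and 9.60 in C6 glioma (3.46-fold), and the Notch ligand Jag1, with 5.10 in SMiNs and 6.63 in C6 glioma (2.88-fold). The higher genes were the syndecan Sdc3, with 9.99 in SMiNs and 6.27 in C6 glioma (13.2-fold), the ephrin Efna5, with 7.06 in SMiNs and 5.41 in C6 glioma (3.14-fold), and the amyloid precursor App, with 11.35 in SMiNs and 10.24 in C6 glioma (2.16-fold). Hbegf, a growth factor that ADAM12 and ADAM17 release, was 1.57-fold lower, and Notch1 was 1.22-fold lower. Counted without a threshold, 18 of the 32 were lower, 10 were higher and 4 had equal values. Over all 18166 named genes, 6908 were lower, 7137 were higher and 4121 had equal values. Genes above the floor leaned lower in both sets. Of the 25 substrates that reached it on at least 1 array, 16 were lower, 8 higher and 1 equal. Of the 11306 named genes that did, 6122 were lower, 3820 higher and 1364 equal.

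Of 24 measured matrix substrates, 6 (25.0%) were at least 2-fold lower and 2 (8.33%) were at least 2-fold higher. The list was made with earlier results of these data known, and the paper already reports Spp1, Col1a1 and Lama4 as down-regulated. The 25.0% is therefore not independent of those results. The lower genes were Spp1, osteopontin, with 7.24 in SMiNs and 11.76 in C6 glioma (23.0-fold), the proteoglycan Bgn, with 6.93 in SMiNs and 11.21 in C6 glioma (19.4-fold), Col1a1 (4.76-fold), Lama4 (4.02-fold) and the basement membrane genes Nid2, with 5.07 in SMiNs and 6.67 in C6 glioma (3.03-fold), and Lamc1, with 8.45 in SMiNs and 9.83 in C6 glioma (2.61-fold). The higher genes were Eln, elastin, with 7.76 in SMiNs and 5.43 in C6 glioma (5.01-fold), and Vcan, the versican that ADAMTS1 and ADAMTS9 cleave, with 10.76 in SMiNs and 9.58 in C6 glioma (2.26-fold). Acan and Bcan, which encode the proteoglycans aggrecan and brevican, were below the floor on both arrays.

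**Figure D5:**
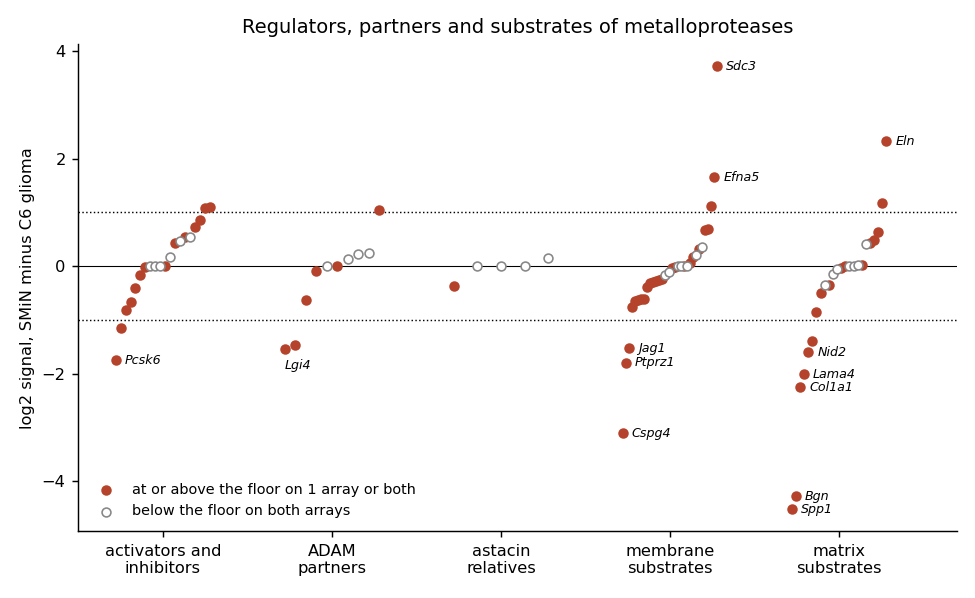
Difference in log2 signal as deposited, SMiN minus C6 glioma (y axis), of each gene in the 5 companion lists (x axis), 1 point per gene; filled points reach the floor on at least 1 array, open points do not, and dotted lines mark 2-fold. Among the matrix substrates Spp1 and Bgn lie lowest and Eln highest, and among the membrane substrates Cspg4 lies lowest and Sdc3 highest.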

How the data were processed

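Total RNA was converted by the authors to labeled whole-transcript DNA for 1 Affymetrix array per condition, and they analysed the scans with Affymetrix GeneChip Command Console. The values they deposited are log2 signals of 36685 probe sets; how they were summarized and normalized is not given in the sources used here, and the log base was read from the values. No further scaling was applied, except in the alternatives. Symbols came from a platform annotation table (18511 probe sets with 1 symbol, 575 with several, 17599 unnamed here), and all 68 members matched RefSeq by Entrez number.

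Members, gene lists and role groups were chosen with earlier results of these data known. The genes named are all members past 2-fold that reached the floor, the TIMPs, a list of well-known members, and genes of the companion lists past 2-fold against the floor, with Reck, Bsg, Furin and Plau. Any other gene was named after its values were seen. ADAMs were to be split by the zinc-binding motif of their proteins; no protein sequences were used here, so they were split by textbook knowledge. Promoters are those of RefSeq (GRCr8). The number of arrays limits the precision, and no test between conditions was run. The scripts were tested on simulated data. Python 3.11.15, numpy 2.4.6, pandas 2.3.3 and matplotlib 3.10.9 were used.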

Additional observations from a re-analysis of the deposited data

How the results depend on the processing

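Of 25 named members, 20 stayed on the same side of 2-fold under 4 alternatives, and none changed sign past 2-fold. These were median subtraction, quantile normalization, averaging of probe sets and raising of values to the 95th percentile floor. Averaging could change nothing, because each member has 1 probe set. The 99th percentile floor was not among the 4. The exceptions were Adam17, which passed 2-fold with medians subtracted, and, under quantile normalization, Adamts1, which passed it, and Adamts7, Adamtsl4 and Mmp11, which no longer did. The count of members higher was 2 under quantile normalization, 0 at 4-fold and 8 at 1.5-fold, and the count lower was 6, 5 and 12 in the same order. At 1.5-fold, 17.6% of the members were lower and 11.8% higher, against 16.7% and 11.3% of all named genes. With the floor at the 99th percentile and values under it raised to it, 5 were lower. The share of all named genes was not taken at that floor, so this count has no background beside it. Mmp16, Mmp11, Adamts7 and Adamtsl4 no longer passed 2-fold there. Adamtsl3 and Adamts9 still did, but their SMiN values lay under that floor, 6.05, so that their folds became lower bounds. The median difference was -0.063 with medians subtracted, -0.10 after quantile normalization and 0.10 with values raised to the floor, which is the difference between the floors that every gene below both receives. Over members at or above the floor it was -0.12, against -0.081 over such genes of all those named, and the mean over all 68 members was -0.17. For all named genes the median was -0.063 with medians subtracted and -0.062 after quantile normalization. With 1 array per condition no array could be left out. No paired analysis was possible because each condition has 1 array.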

Other observations

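Of the 19 members with the same value on both arrays, 18 had a value that other probe sets equal on both arrays also held. Over all probe sets, the 7312 with equal values took only 1822 distinct values. On the SMiN array 37.9% of probe sets shared their value with another probe set, and on the C6 glioma array 49.1% did. Of the members, 27 did so on the SMiN array and 37 on the C6 glioma array. Mmp8 and Adam32, for example, both had a log2 signal of 3.48 on each array. How the shared values arose was not tested.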
